A study of Mus musculus with 20 samples.

Results

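The complement genes C1qa, C1qb, C1qc, C1ra, C4b, C3, C3ar1, C5ar1 and Serping1 were followed through the brain tissue of aged mice after stroke. They were chosen by name, as 9 of the 46078 genes counted, and all 9 were found. The tissue came from male C57BL/6J wild-type mice aged 18 months, which all received a DH stroke, an occlusion of the distal middle cerebral artery combined with hypoxia. From 1 week after the stroke, mice were injected under the skin 3 times a week for 6 weeks with either PBS vehicle or 4 g/kg HPBCD (hydroxypropyl-β-cyclodextrin, a ring of sugars that binds cholesterol and other lipids). At 7 weeks after the stroke, RNA was taken from the peri-infarct region, the tissue that borders the dead core, and from the matching region of the contralateral hemisphere. The 20 bulk RNA-seq libraries formed 4 groups of 5: vehicle peri-infarct, vehicle contralateral, HPBCD peri-infarct and HPBCD contralateral. The animal identifiers in the deposited names paired the regions within each of 10 mice. No library of a mouse without stroke was analysed here, so the contralateral region is the reference for the lesion. The titles, the treatment labels and the deposited names divided all 20 libraries by treatment in the same way. No deleted or added gene marks the treatment, so the treatment label could not be checked independently from these files. The study reported Gfap, Serpina3n and C2 as lower with HPBCD than with vehicle in the peri-infarct region. In the libraries as labelled, these genes had higher mean levels with HPBCD there, and the reason was not tested. HPBCD below means the libraries that carry that label, and the direction of every treatment difference and interaction rests on it: were the labels exchanged, each would reverse.

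Complement is a cascade of proteins that tag debris, microbes and, in the brain, synapses for removal. In the classical pathway, C1q, a bundle of chains encoded by C1qa, C1qb and C1qc, binds a target and activates the proteases C1r (C1ra) and C1s, which cleave C4 and C2 to form an enzyme that cleaves C3. The fragments C3a and C5a signal through the receptors C3ar1 and C5ar1, and the C1 inhibitor, encoded by Serping1, blocks C1r and C1s. In the brain, C1q and C3ar1 are known as products of microglia, C4b and C3 are known to be made by reactive astrocytes, and Serping1 and C1ra are known from fibroblasts and vessel-associated cells.

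Each library held between 14445021 and 22171627 counts assigned to genes. Levels are given as CPM, a gene's counts relative to library size after scaling by the trimmed mean of M values. The floor was set at 3 counts in a library, equal to 0.135 to 0.208 CPM. A gene was called when its edgeR quasi-likelihood p, adjusted over all genes tested, was under 0.05, and an adjusted p without another tool's name is this one. Markers of other cells moved with the groups. Summed markers of fibroblasts and meninges reached 626 to 1414 CPM in HPBCD peri-infarct libraries and 167 to 450 CPM in vehicle peri-infarct libraries, all 8 neuron markers were called lower in the peri-infarct than in the contralateral region of HPBCD mice, and 3 of 8 in vehicle mice. Both libraries of HPBCD mouse 3 stood apart in their summed markers of ependyma and choroid plexus, at 811 CPM in the peri-infarct and 642 CPM in the contralateral region, against 7.16 to 273 CPM in the other 18 libraries. These markers also moved with the groups: the sums were 28.9 to 122 CPM in vehicle and 111 to 811 CPM in HPBCD peri-infarct libraries, and 5 of 8 were called higher with HPBCD there, with a median log2 fold change of 1.85. All 8 astrocyte and all 8 neuron markers were above the floor in every group. The HPBCD contralateral library of mouse 4 had the fewest gene counts, with 9.503% of read pairs in no gene and 8.03% ambiguous, against 4.39% to 5.858% and 3.941% to 4.162% in the other 19. Without it all 9 genes were still called between the regions of HPBCD mice and none between treatments contralaterally. In bulk tissue, more cells of a type and more RNA per cell cannot be told apart.

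Compared per kilobase of exon, the order of the 9 genes changed between the regions. In the vehicle contralateral group, C1qa was highest at 88.3 ± 17.4 CPM per kilobase (SD, n = 5), C1qb followed at 59.7 ± 12.8 and C1qc at 31.9 ± 4.91. C4b stood at 7.16 ± 3.33 CPM per kilobase, C1ra at 2.05 ± 0.568 and Serping1 at 2.0 ± 1.89, and these last did not differ beyond their spread. C3ar1 at 0.562 ± 0.129 and C5ar1 at 0.448 ± 0.13 lay within 1 SD of each other, and C3 was lowest at 0.147 ± 0.159 CPM per kilobase. In the vehicle peri-infarct group the C1q chains and C4b kept their places, at 362 ± 192, 213 ± 104, 117 ± 62.9 and 56.7 ± 27.1 CPM per kilobase. C3 came next, at 16.5 ± 14.2, ahead of Serping1 at 7.67 ± 5.37, C3ar1 at 3.37 ± 2.15, C1ra at 1.87 ± 1.01 and C5ar1 at 1.18 ± 0.517, although the spreads of C3 and Serping1 overlapped. The same order held in the HPBCD peri-infarct group, from 598 ± 210.3 CPM per kilobase for C1qa down to 2.49 ± 1.06 for C5ar1, with C3ar1 at 6.03 ± 2.47 and C1ra at 5.95 ± 2.02 not separable.

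**Figure D1:**
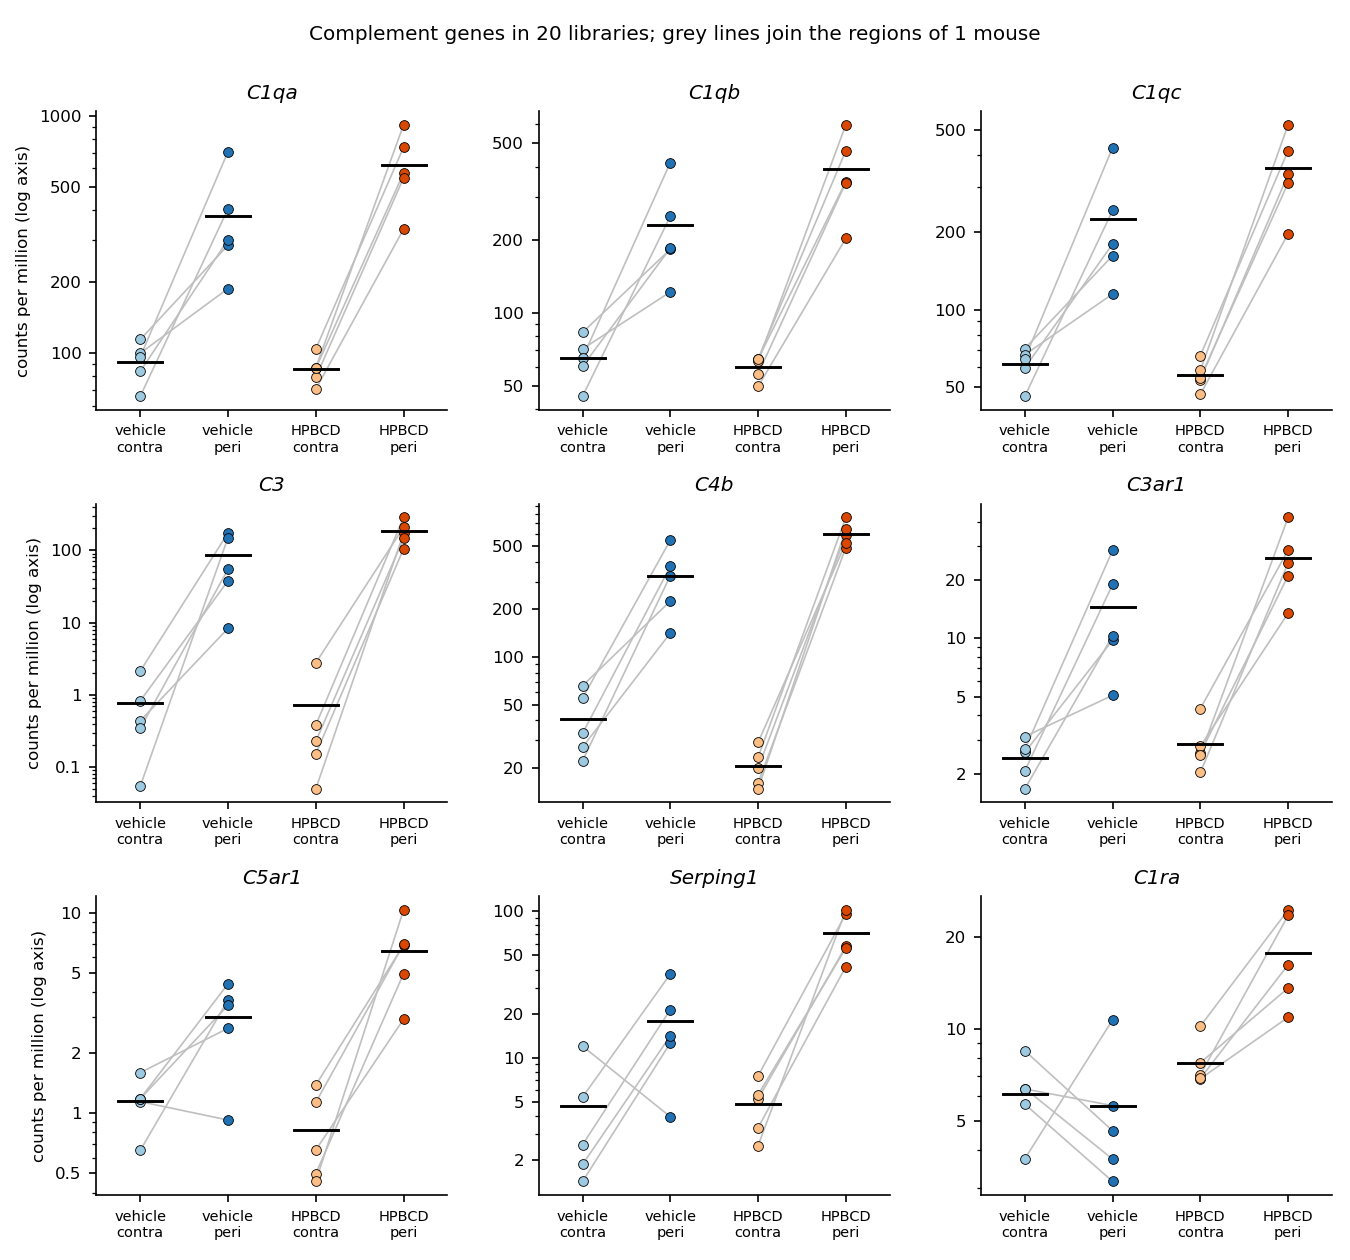
Level of each of the 9 genes in CPM (log axis) in the 20 libraries. Points are libraries, black bars are group means of 5 libraries, and grey lines join the contralateral and peri-infarct libraries of 1 mouse. For 6 of the 9 genes all vehicle peri-infarct libraries lie above all vehicle contralateral ones, and for all 9 genes this holds in the HPBCD mice.

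The first comparison asked how the peri-infarct region differed from the contralateral region. The main test did not use the pairing of the regions within mice, and a fit with the mouse as a block is given below as an alternative. In vehicle mice, 7 of the 9 genes were called higher in the peri-infarct region, whereas 10.5% of the 15801 genes tested were called higher there. The median log2 fold change of the 9 genes was 1.93, and that of all genes tested was 0.015. Serping1 had a positive fold change but just missed the threshold, and that of C1ra was near 0. In HPBCD mice all 9 genes were called higher, with a median log2 fold change of 2.95, and 30.3% of the 16047 genes tested were called higher. The groups did not overlap for 6 of the 9 genes in vehicle mice, where this held for 6.72% of all genes tested, and for all 9 genes in HPBCD mice, where it held for 24.3%.

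The C1q chains rose together. Their genes lie side by side on the minus strand of chromosome 4 (GRCm38), C1qb at chr4:136880129-136886187, C1qc at chr4:136889804-136893065 and C1qa at chr4:136895917-136898803. RefSeq starts were matched for 6 of the 9 genes (all but C1qa, C4b and Serping1). Because C1qb and C1qc moved as a unit, the 250 bases upstream of their RefSeq starts (build GRCm38.p6, minus strand, 5′ to 3′) are shown, at chr4:136886201-136886450 and chr4:136892915-136893164, with matches to the PU.1 core GAGGAA, on either strand, in capitals. PU.1 is a transcription factor of microglia and other myeloid cells.
C1qb: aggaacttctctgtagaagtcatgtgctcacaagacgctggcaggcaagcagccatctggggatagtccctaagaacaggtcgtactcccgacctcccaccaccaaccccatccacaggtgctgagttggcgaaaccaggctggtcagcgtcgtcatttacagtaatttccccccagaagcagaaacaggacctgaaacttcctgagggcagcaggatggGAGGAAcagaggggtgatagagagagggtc
C1qc: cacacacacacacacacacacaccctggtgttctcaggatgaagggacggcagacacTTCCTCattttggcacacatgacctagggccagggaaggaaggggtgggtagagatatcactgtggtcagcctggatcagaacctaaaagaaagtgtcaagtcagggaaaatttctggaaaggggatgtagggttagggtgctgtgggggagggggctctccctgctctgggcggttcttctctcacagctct
The match lies at bases -30 to -25 of C1qb and, on the opposite strand, at -193 to -188 of C1qc. The same letters occur in 23.3% of 32851 mouse promoter windows of this length, so a match is a description and not a site. By the gene coordinates given above, part of the C1qc window lies within the gene, because the RefSeq start of C1qc lies inside them.

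In the vehicle peri-infarct libraries of mice 1 to 5, C1qa was at 285, 187, 707, 406 and 300 CPM, against 114, 99.8, 96.3, 65.7 and 83.7 CPM in the contralateral libraries of the same mice. Mouse 3 was the highest and mouse 2 the lowest of the peri-infarct values, and the regions did not overlap. In HPBCD mice, C1qa was at 574, 333, 548, 917 and 737 CPM in the peri-infarct region and between 70.4 and 104 CPM contralaterally. The log2 fold change between regions was 2.03 ± 0.31 (SE, n = 5 per group; adjusted p = 0.00244) in vehicle mice and 2.86 ± 0.22 (adjusted p = 9.86e-07) in HPBCD mice, or 4.08-fold and 7.27-fold. C1qb and C1qc followed closely: C1qb rose by 1.82 ± 0.29 in vehicle mice and 2.71 ± 0.23 in HPBCD mice on the log2 scale, and C1qc by 1.86 ± 0.30 and 2.67 ± 0.21 (adjusted p = 0.00275 and 0.00292 in vehicle mice, 1.54e-06 and 1.07e-06 in HPBCD mice). Their peri-infarct levels ranged from 122 to 417 CPM (C1qb) and from 115 to 426 CPM (C1qc) in vehicle mice, with mouse 2 lowest and mouse 3 highest for both, as for C1qa.

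The share of each chain was also compared between the regions. Of the summed C1q level per kilobase, C1qa made up 52.2 ± 0.638% (SD, n = 5) in the vehicle peri-infarct group and 49.1 ± 0.528% in the vehicle contralateral group, and 52.4 ± 0.358% and 49.4 ± 1.31% in the HPBCD groups. The C1qa share was higher in the peri-infarct region in 10 of 10 mice, by 3.05 ± 0.986 percentage points (SD; range 0.684 to 3.98). This direction was noticed in these values and is given as a description, with no test. The mean share of C1qb was 33.1% contralaterally and 31.1% in the peri-infarct region in vehicle mice, and 33.1% and 31.4% in HPBCD mice. That of C1qc was 17.8% and 16.7% in vehicle mice and 17.5% and 16.2% in HPBCD mice. For both of these chains the share was lower in the peri-infarct region in 9 of 10 mice. Between treatments the C1qa share did not differ beyond its spread (two-sided exact permutation test, p = 0.476 in the peri-infarct and 0.778 in the contralateral region).

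**Figure D2:**
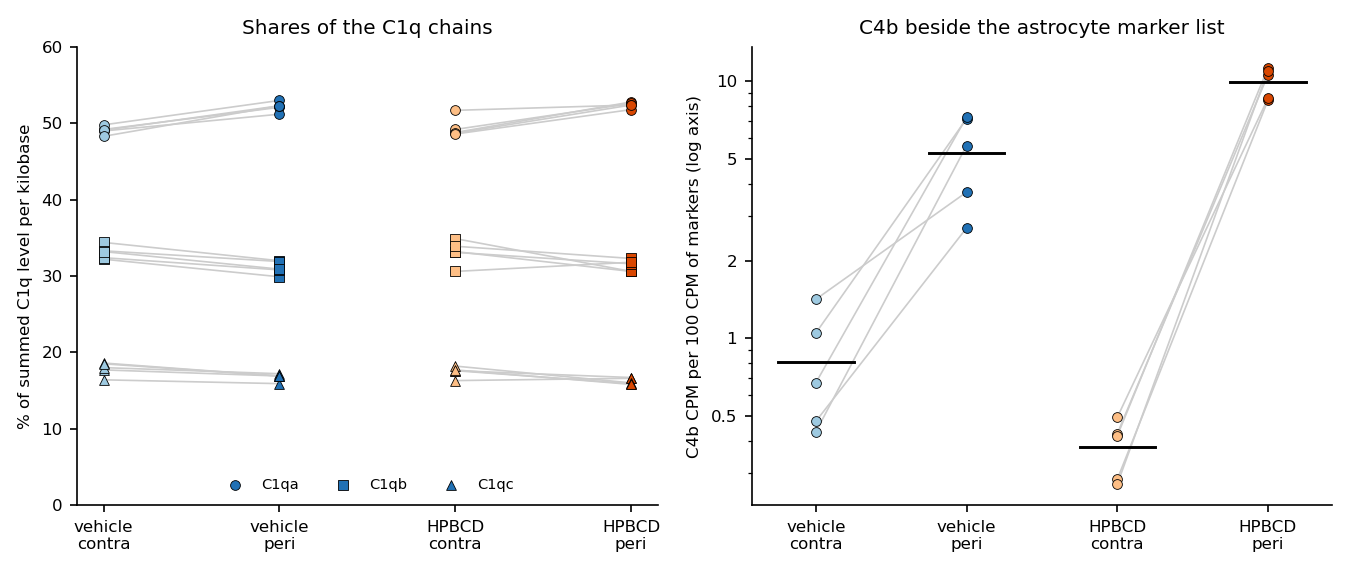
Left, the share of C1qa (circles), C1qb (squares) and C1qc (triangles) in their summed level per kilobase, in percent, for each library; right, C4b in CPM per 100 CPM of 8 summed astrocyte markers (log axis). Grey lines join the regions of 1 mouse and black bars are means of 5 libraries. The C1qa share is between 51.2% and 53.0% in all 10 peri-infarct libraries, and the 5 HPBCD peri-infarct libraries lie at 8.45 to 11.3 for C4b, all above the vehicle ones.

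C3, the central component on which all activation routes converge, had the largest log2 fold change of the 9 genes between the regions of either treatment, measured against contralateral levels that were as low as 1 count in a library. It lies at chr17:57203970-57228136. In vehicle mice it was at 37.9, 8.31, 174, 150 and 54.7 CPM in the peri-infarct region, against 0.825, 0.436, 2.13, 0.0544 and 0.344 CPM contralaterally. In HPBCD mice the peri-infarct values were 171, 105, 208, 285 and 147 CPM, and the contralateral ones 0.0499, 0.151, 2.76, 0.38 and 0.226 CPM. Contralateral C3 was under 1 CPM in 8 of 10 libraries and reached no more than 40 counts in any, and mouse 3 of either treatment was the highest. The regions did not overlap. The log2 fold change was 6.83 ± 0.92 (SE; adjusted p = 0.00174) in vehicle mice, and with limma voom the adjusted p was 0.0533. In HPBCD mice it was 8.14 ± 0.61 (adjusted p = 8.75e-07).

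Upstream of C3 and of the receptor C3ar1, the RefSeq windows held matches to other short motifs, shown here because these genes had, with C4b, the largest rises of the 9 in vehicle mice. For C3 (chr17:57228137-57228386, minus strand) the capitals mark TTGCNNAA, the C/EBP motif, at bases -45 to -38. For C3ar1 (chr6:122856158-122856407, minus strand) they mark TGANTCA, the AP-1 motif, at -22 to -16.
C3: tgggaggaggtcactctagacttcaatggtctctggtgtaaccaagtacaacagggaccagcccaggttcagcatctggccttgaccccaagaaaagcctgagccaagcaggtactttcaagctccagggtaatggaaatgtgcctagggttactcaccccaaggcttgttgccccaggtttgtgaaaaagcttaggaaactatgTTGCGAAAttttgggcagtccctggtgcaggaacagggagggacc
C3ar1: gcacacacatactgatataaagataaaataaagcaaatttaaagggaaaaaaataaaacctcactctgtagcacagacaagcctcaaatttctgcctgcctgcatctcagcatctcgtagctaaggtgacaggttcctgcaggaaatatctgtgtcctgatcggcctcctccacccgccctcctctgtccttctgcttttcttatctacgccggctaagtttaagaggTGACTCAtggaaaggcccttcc
C/EBP letters occur in 9.56% and AP-1 letters in 6.75% of the promoter windows. The letters searched for STAT (TTCNNNGAA, in 7.02% of windows), for the interferon response element core and for NF-kB were found in none of the 6 windows. In the windows of C5ar1 and C1ra none of the 6 motifs was found, and no 2 matches overlapped. The windows of C5ar1 and C1ra also lie partly within the genes by the gene coordinates used here.

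C4b, which encodes the main mouse C4, whose cleaved form binds covalently to targets, lies at chr17:34728380-34743882. In vehicle mice it was at 226, 142, 547, 327 and 374 CPM in the peri-infarct region, against 66.1, 27.1, 55.2, 22.2 and 33.1 CPM contralaterally. In HPBCD mice it was at 589, 491, 526, 761 and 639 CPM, against 14.8 to 29.0 CPM, with a median of 20 CPM. All peri-infarct values lay above all contralateral values of the same treatment. The log2 fold change was 2.98 ± 0.39 (SE; adjusted p = 0.00154) in vehicle and 4.86 ± 0.21 (adjusted p = 3.56e-08) in HPBCD mice. Of the windows of 75 bases in C4b, 22.67% also occur in its copy C4a, so part of its reads could not be assigned. C4a itself averaged 0.677 to 0.851 CPM in the 4 groups and was not called in any comparison.

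C1ra, the protease at the start of the pathway, did not follow the C1q chains in vehicle mice. It lies on the plus strand at chr6:124512405-124523443. The vehicle peri-infarct values were 3.16, 3.74, 4.63, 10.7 and 5.6 CPM and the contralateral ones 5.66, 6.37, 8.47, 3.75 and 6.35 CPM. Only mouse 4 was higher in the peri-infarct region, and the log2 fold change was -0.15 ± 0.32 (SE; adjusted p = 0.775). In HPBCD mice the peri-infarct values were 13.6, 10.9, 24.5, 23.5 and 16.2 CPM, all above the contralateral values of 7.74, 6.86, 10.2, 7.07 and 6.88 CPM, with a log2 fold change of 1.19 ± 0.21 (adjusted p = 0.000449). C1ra shares 42.41% of its windows of 75 bases with other genes, mostly its copy C1rb, which had at most 4 counts in any library, so C1ra counts rest on its remaining sequence. The other 7 genes share none.

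The receptors for the anaphylatoxins rose as well. C3ar1 (chr6:122847138-122856161) was at 9.79, 5.08, 28.5, 19.0 and 10.3 CPM in the vehicle peri-infarct region and between 1.67 and 3.11 CPM contralaterally, a log2 fold change of 2.57 ± 0.41 (SE; adjusted p = 0.00289). In HPBCD mice it was at 21.1, 13.5, 28.6, 42.2 and 24.5 CPM against 2.03 to 4.34 CPM, a log2 fold change of 3.19 ± 0.29 (adjusted p = 2.43e-06). C5ar1 (chr7:16246743-16259540), the less abundant receptor, was at 2.65, 0.923, 4.41, 3.67 and 3.45 CPM in the vehicle peri-infarct region and at 1.59, 1.14, 1.18, 0.652 and 1.18 CPM contralaterally. The regions overlapped through mouse 2, which was lower in the peri-infarct region. The log2 fold change was 1.37 ± 0.37 (adjusted p = 0.0238), and the call was lost with the mouse as a block (adjusted p = 0.052). It was also lost without the vehicle peri-infarct library of mouse 3 (0.0531) or mouse 4 (0.0579), or the vehicle contralateral library of mouse 5 (0.0529). In HPBCD mice C5ar1 was at 4.96, 2.94, 6.88, 10.3 and 6.94 CPM against 0.456 to 1.38 CPM, with no overlap and a log2 fold change of 2.95 ± 0.37 (adjusted p = 2.69e-05).

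Serping1, the inhibitor of the first step, lies at chr2:84765387-84775444. In vehicle mice it was at 12.6, 3.95, 21.3, 37.3 and 14.1 CPM in the peri-infarct region and at 1.43, 12, 2.55, 5.38 and 1.87 CPM contralaterally. Mouse 2 ran against the other 4: its peri-infarct library was the lowest and its contralateral library the highest of its group. The log2 fold change was 1.93 ± 0.63 (SE; adjusted p = 0.0501), just outside the threshold, and 2.18 and 2.67 (adjusted p = 0.0198 and 0.0184) without the peri-infarct or the contralateral library of mouse 2. The summed fibroblast and meninges markers of that contralateral library were 408 CPM, the highest of the vehicle contralateral group, whose lowest was 94.9 CPM, and their part in the result was not tested. In HPBCD mice Serping1 was at 57.6, 41.8, 96.0, 102 and 56.1 CPM against 5.24, 3.33, 7.51, 2.51 and 5.58 CPM, with no overlap and a log2 fold change of 3.86 ± 0.31 (adjusted p = 1.18e-06).

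Within single mice, the log2 difference between the regions (of CPM plus 0.5) was positive in 5 of 5 vehicle mice for the C1q chains, C3, C4b and C3ar1, a pattern that held for 15.1% of all genes tested. It was positive in 4 of 5 for C5ar1 and Serping1 and in 1 of 5 for C1ra. Vehicle mouse 2 had the smallest difference for 5 of those 6 genes, for example 0.91 for C1qa and 3.23 for C3, while for C4b mouse 1 had the smallest at 1.76. In HPBCD mice the difference was positive in 5 of 5 for all 9 genes, against 31.8% of all genes tested. For all 9 genes the SD of the difference was smaller in HPBCD than in vehicle mice, for C4b 0.44 against 0.86, a contrast in spread that was not tested.

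**Figure D3:**
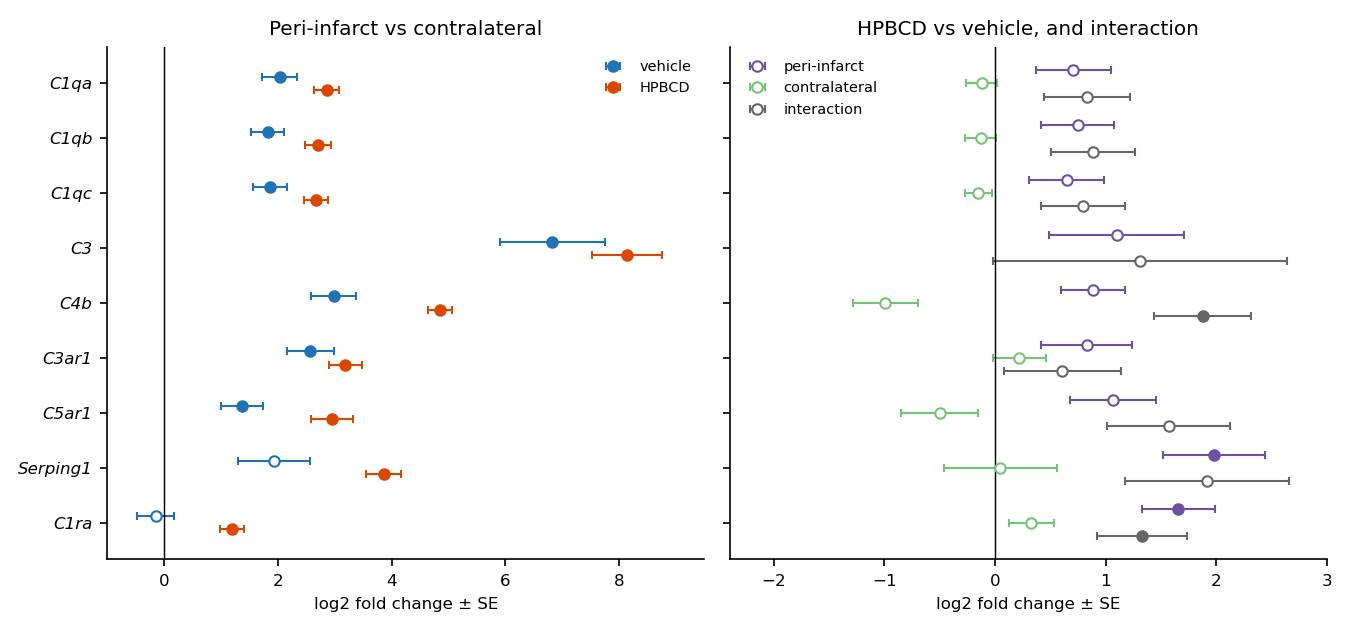
Log2 fold change with its standard error for each gene, left for the peri-infarct against the contralateral region in vehicle and HPBCD mice, right for HPBCD against vehicle in each region and for the interaction. Filled symbols passed the edgeR test at an adjusted p under 0.05 and open ones did not. C3 has no value in the contralateral comparison because it did not pass the filter on low counts.

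The second comparison asked how the libraries labelled HPBCD and vehicle differed in the peri-infarct region, with directions that hold only as far as these labels do. All 9 genes had higher fitted levels in HPBCD libraries, with a median log2 fold change of 0.89, but only Serping1 and C1ra passed the test, 2 of 9, where 12.4% of 16224 genes were called higher. These are also the members whose groups did not overlap, as for 7.46% of all genes tested. The fold change of Serping1 was 1.98 ± 0.46 on the log2 scale (SE, n = 5 per group; adjusted p = 0.0192), and the lowest HPBCD library, at 41.8 CPM, exceeded the highest vehicle library, at 37.3 CPM. Without the HPBCD peri-infarct library of mouse 3 the adjusted p was 0.053. C1ra rose by 1.66 ± 0.33 (adjusted p = 0.0137), 3.16-fold, and its lowest HPBCD value of 10.9 CPM lay just above the highest vehicle value of 10.7 CPM. The adjusted p of C1ra stayed between 3.63e-05 and 0.0426 in every alternative run.

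For the other 7 genes the peri-infarct groups overlapped. C4b was nearest to the threshold, at 0.89 ± 0.29 (adjusted p = 0.0504), and was called by DESeq2 (0.0144) and limma voom (0.0376). C5ar1 stood at 1.07 ± 0.39 (adjusted p = 0.0657) and C3 at 1.10 ± 0.61 (0.201). The C1q chains stood at 0.65 to 0.75 (adjusted p = 0.118 to 0.173) and C3ar1 at 0.83 ± 0.41 (0.158). The overlap for the C1q chains came from both sides: vehicle mouse 3, at 707 CPM of C1qa, exceeded 3 of the 5 HPBCD libraries, and HPBCD mouse 2, at 333 CPM, lay below 2 vehicle libraries. Without the vehicle peri-infarct library of mouse 3, 8 of the 9 genes were called, all but C3. Without that of HPBCD mouse 2, 5 were called, and without that of HPBCD mouse 3 only C1ra was. The calls over all genes moved with them: 2011 of 16224 genes were called higher with all 10 libraries, 2792 of 16439 without vehicle mouse 3, 2665 of 16428 without HPBCD mouse 2 and 593 of 16354 without HPBCD mouse 3.

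In the contralateral region the treatments did not differ detectably in these genes. By edgeR 0 of the 8 members tested were called, and 0.0% of 15469 genes, of which 1224 had an unadjusted p under 0.05. limma voom also called 0 genes and DESeq2 called 39 higher and 17 lower, none of them a member. C4b was the one member with an unadjusted p under 0.05 (0.00399): its log2 fold change was -0.99 ± 0.29 (SE; adjusted p = 0.503), with group means of 20.7 CPM in HPBCD and 40.8 CPM in vehicle libraries and overlapping values. The C1q chains differed by -0.12 to -0.15, Serping1 by 0.05 ± 0.51, C3ar1 by 0.22 ± 0.24, C1ra by 0.33 ± 0.20 and C5ar1 by -0.50 ± 0.35 on the log2 scale.

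Whether the region difference itself depended on treatment was tested as an interaction over all 20 libraries, in the main fit without the pairing within mice. All 9 estimates were positive, with a median of 1.31, and 2 of 9 genes passed, C4b and C1ra, where 5.03% of 16758 genes had a higher call. The interaction of C4b was 1.88 ± 0.44 on the log2 scale (SE; adjusted p = 0.0201), and the adjusted p ranged from 0.00337 to 0.041 over all alternatives. Both regions entered it, since C4b was lower contralaterally and higher peri-infarct in HPBCD libraries, neither of which passed alone. The 6 oligodendrocyte markers had the same directions. Their median log2 fold change between treatments was -0.45 contralaterally (0 of 6 called by edgeR, all 6 negative) and 0.6 in the peri-infarct region (1 of 6 called, all 6 positive), and their median interaction was 1.04 (2 of 6 called). Between the regions 6 of 6 were called higher in HPBCD mice and 0 of 6 in vehicle mice. Their sums were 6030 to 14514 CPM in the peri-infarct and 4470 to 11648 CPM in the contralateral region of vehicle mice, and 12432 to 19118 CPM and 5488 to 6925 CPM in HPBCD mice. Over the 10 peri-infarct libraries, with group means removed, C4b had r = 0.75 with them, and their part in the result was not tested. The interaction of C1ra was 1.33 ± 0.41 (adjusted p = 0.0458). This call was not stable: it was lost with the mouse as a block (1.37, adjusted p = 0.0518), with limma voom (0.0513), with no filter on low counts (0.0503) and with thinned counts (0.0512). Leaving out single libraries gave adjusted p-values of 0.0119 to 0.0915, most of them over the threshold, among them 0.0755 without the HPBCD contralateral library of mouse 4. For Serping1 (1.92 ± 0.74, adjusted p = 0.0971) and C5ar1 (1.57 ± 0.56, adjusted p = 0.0744) the estimate was as large but did not pass, and for C3 the error of 1.33 was about the size of the estimate of 1.31. The C1q chains stood at 0.80 to 0.89 (adjusted p = 0.134 to 0.172) and C3ar1 at 0.61 (0.468). When the log2 differences within mice (of CPM plus 0.5) were instead compared between the 5 HPBCD and 5 vehicle mice, 1 gene at a time, the difference averaged 3.74 ± 0.76 (SD) for Serping1 with HPBCD and 1.88 ± 1.89 with vehicle. A two-sided exact permutation test gave p = 0.00794 for Serping1 and for C4b, the smallest it can give, 0.0159 for C5ar1 and 0.0397 for C1ra. The exact permutation p was 0.0714 to 0.206 for the other 5 genes, and none of these values is adjusted over genes.

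The rest of the pathway was described from 50 further complement genes grouped by role, of which 25 to 28 passed the filter on low counts in each comparison. In vehicle mice 7 of 26 were called higher in the peri-infarct region and 0 lower, where 10.5% of all genes tested were called higher and 9.7% lower. In HPBCD mice 16 of 25 were called higher (30.3% of all genes) and 4 lower (24.3%), and between treatments in the peri-infarct region 9 of 27 higher (12.4% of all genes) and 2 lower (9.0%). Their median log2 fold changes were 0.22, 1.19 and 0.57. In the contralateral region 0 of 25 were called between treatments by edgeR. For the interaction 4 of 28 had a higher call, as had 5.03% of all genes tested, and 1, Susd4, a lower one, as had 4.38%.

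Among the initiating components, C1s1, the partner protease of C1ra, rose with it between treatments. It averaged 1.86 ± 1.31 CPM (SD, n = 5) in the peri-infarct region of vehicle mice and 8.37 ± 3.88 CPM in that of HPBCD mice, a log2 fold change of 2.16 ± 0.47 (SE; adjusted p = 0.0162). It was also called between the regions of vehicle mice, by 1.86 ± 0.56 (adjusted p = 0.0365), a call lost with the mouse as a block (0.101). Exons of C1s1 overlap a predicted gene on the opposite strand by 576 bases and share 24.77% of their windows of 75 bases with other genes, so its counts are uncertain. C2 provides the protease of the C3-cleaving enzyme, and it overlaps a readthrough gene. The study reported it as lower with HPBCD in the peri-infarct region. Here C2 was higher in the peri-infarct libraries labelled HPBCD than in those labelled vehicle by 1.83 ± 0.33 (adjusted p = 0.0128), at 2.75 and 0.768 CPM. Colec12, a scavenger receptor of the collectin family, was higher by 1.85 ± 0.36 (adjusted p = 0.0132), and C1rl, a relative of C1r, by 0.92 ± 0.26 (adjusted p = 0.0306). The call of C1rl was lost when single libraries were left out (adjusted p up to 0.0715).

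Of the soluble regulators, Vtn, vitronectin, an inhibitor of the terminal complex, was flat between the regions of vehicle mice (0.08 ± 0.14, adjusted p = 0.713) and rose in HPBCD mice (1.19 ± 0.14, adjusted p = 1.62e-05). Its interaction was 1.09 ± 0.21 (adjusted p = 0.0139). Clu, clusterin, the most abundant regulator at 1111 to 1526 CPM in the peri-infarct groups, rose between regions by 0.73 ± 0.14 in vehicle and 1.31 ± 0.12 in HPBCD mice, and its difference between treatments of 0.45 ± 0.17 did not pass (adjusted p = 0.0765).

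The membrane regulators moved in both directions. Cd55, which dissociates the C3-cleaving enzymes, was higher in HPBCD than in vehicle peri-infarct libraries by 1.32 ± 0.25 (SE; adjusted p = 0.0128), Cd59a, which blocks the membrane attack complex, by 0.98 ± 0.22 (0.0169) and Cr1l, or Crry, the main mouse regulator of C3 activation on cells, by 0.61 ± 0.11 (0.0128). Csmd1 and Susd4, known as regulators made by neurons, were lower by 0.54 ± 0.16 and 0.56 ± 0.15 (adjusted p = 0.0362 and 0.0263), and 6 of 8 neuron markers were called lower in the libraries labelled HPBCD in the same comparison. The part of the neuron markers in these results was not tested. Both calls were lost when single libraries were left out, with adjusted p-values up to 0.0909 for Csmd1 and 0.0705 for Susd4.

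Among the receptors, Itgam, Itgax and Itgb2, which form the integrin receptors for cleaved C3, were called higher between the regions in vehicle mice (1.5 ± 0.23, 4.95 ± 0.81 and 2.18 ± 0.35) and in HPBCD mice (2.0 ± 0.17, 5.81 ± 0.33 and 3.14 ± 0.22). Itgam shares 65.22% of its windows of 75 bases with Gm49368, a gene whose exons overlap it on the same strand by 3450 bases, so its counts are uncertain. Between treatments in the peri-infarct region 0 of 6 receptors tested passed in edgeR, with estimates of 0.48 ± 0.27 for Itgam, 0.66 ± 0.56 for Itgax and 0.67 ± 0.35 for Itgb2. C5ar2, the second C5a receptor, was called between the regions of HPBCD mice only (1.75 ± 0.25), but its interaction did not pass (adjusted p = 0.0977). Of the terminal pathway, C8g alone passed the filter in all of the 3 comparisons plotted and was not called. C5 itself, encoded by Hc, averaged 0.0972 CPM in the vehicle contralateral and 0.614 CPM in the HPBCD peri-infarct group, with at most 21 counts in a library. The alternative pathway gene Cfb had at most 6 counts in any library and 0 in all 5 HPBCD contralateral ones. Cfb shares 69.86% of its windows of 75 bases with Gm20547. Exons of that gene overlap Cfb on the same strand by 2246 bases, so the counts of Cfb are uncertain. Neither Hc nor Cfb passed the filter on low counts in any comparison, so neither was tested.

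**Figure D4:**
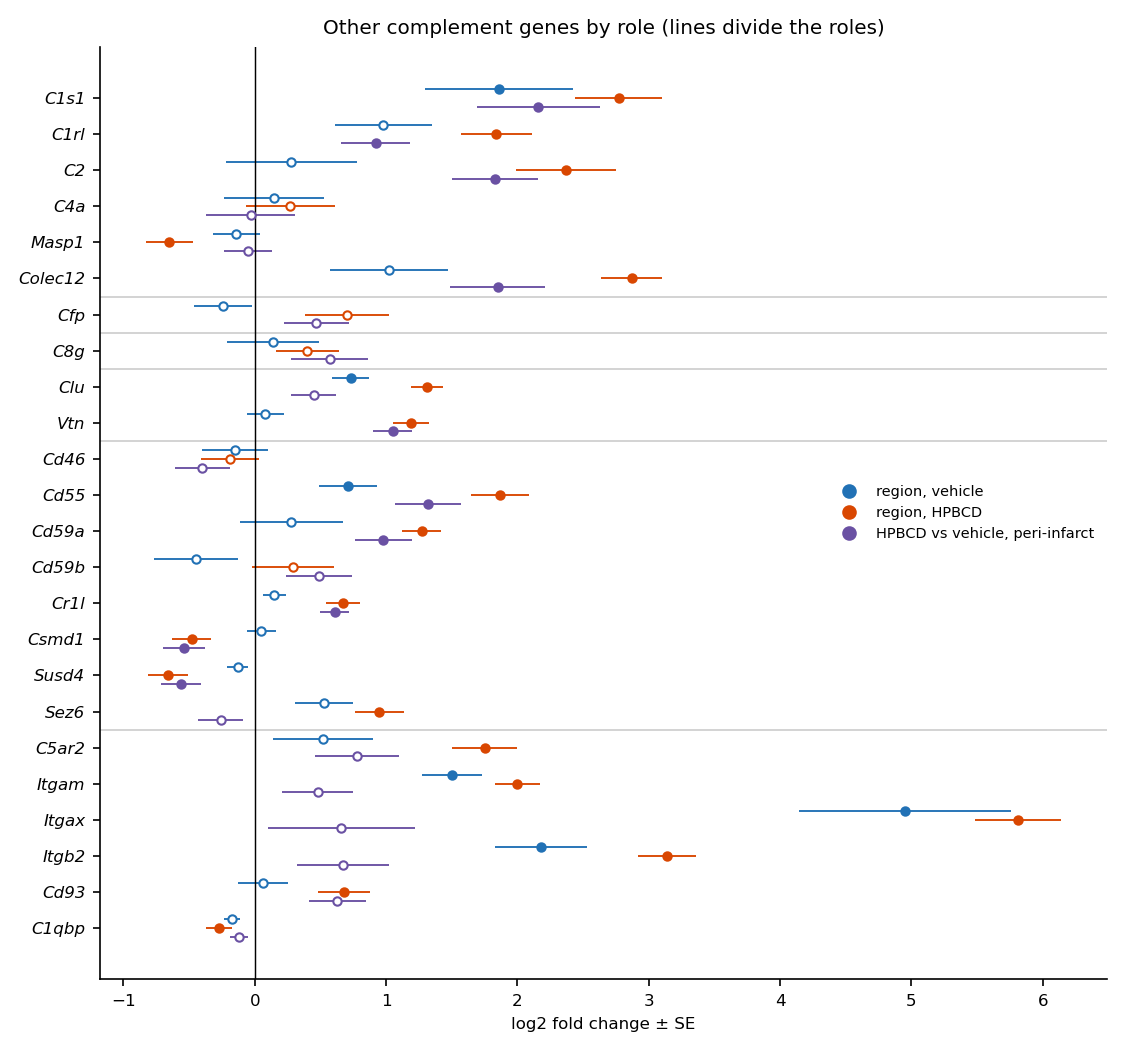
Log2 fold change with its standard error for 24 further complement genes tested in all 3 comparisons shown. Grey lines divide, from the top, the initiating components, the alternative pathway, the terminal pathway, the soluble regulators, the membrane regulators and the receptors. Filled symbols passed the edgeR test, and for the receptors no symbol of the treatment comparison is filled.

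Across the 10 peri-infarct libraries, after the mean of each group was removed, the 9 genes did not vary as one block. These correlations are over libraries that share depth and tissue composition and are given as a description. C1qa, C1qb and C1qc followed each other with Pearson r of 0.99 to 1.0, and C3ar1 followed C1qa with 0.95. C3 and Serping1 followed each other with 0.94, while C1ra was the least like the rest, with r from 0.39 (C4b) to 0.78 (Serping1).

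The genes most like each member, among 12017 compared in those 10 libraries, were chosen by the highest Pearson r. C1qa was most like Trem2 and Tyrobp (both r = 0.991), the microglial receptor for lipids and its signalling adaptor, and Fcrls and Hspb6 were also among its 5 closest. C4b was most like Galnt7 and Gfap (both 0.986), the latter the filament protein of reactive astrocytes, followed by Rassf4, Slc14a1 and Csf1. C3 was most like A2m (0.992), an extracellular protease inhibitor, followed by H2-Ab1, Mamdc2, Gm49339 and Asap3. Serping1 was most like Tfcp2l1 (0.981), then Efemp1, A4galt, Vstm4 and Tbx18, the last a factor of mural and meningeal cells.

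The members were also set against the summed levels of marker lists in the same way. C1qa had r = 0.95 with the homeostatic microglia markers and C4b had r = 0.98 with the reactive astrocyte markers. The lists themselves moved together, and the crossed values were nearly as high, at 0.89 for C1qa with the reactive astrocyte markers and 0.90 for C4b with the homeostatic microglia markers. Serping1 had r = 0.84 with the reactive astrocyte markers and r = 0.82 with the fibroblast and meninges markers, and C1ra had r = 0.72 with the latter. The homeostatic microglia markers summed to 500.4 to 1159 CPM with vehicle and 770.3 to 1304 CPM with HPBCD in the peri-infarct region, and to 297 to 359 CPM in the contralateral libraries. All 10 were called higher between the regions in both treatments and 0 of 10 between treatments. Per 100 CPM of these markers, C1qa was at 48.5 ± 9.73 (SD, n = 5) in the vehicle peri-infarct and 27.4 ± 4.56 in the vehicle contralateral group, and at 63.7 ± 12.3 and 26.6 ± 3.86 in the HPBCD groups. It was thus higher in the peri-infarct region relative to these markers in 10 of 10 mice. Between treatments in the peri-infarct region the ratio did not pass a two-sided exact permutation test (p = 0.0714).

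C4b was also set against the astrocyte markers. The 8 general astrocyte markers summed to 5148 to 7650 CPM with vehicle and 5571 to 6731 CPM with HPBCD in the peri-infarct region. This sum combines markers that moved in opposite directions. Between treatments there, 2 of 8 were called higher and 0 lower, and 5 of 8 log2 fold changes were positive, from -0.22 to 1.1. Slc1a2, the most abundant, averaged 2950 CPM with vehicle and 2545 CPM with HPBCD, and Aqp4 averaged 309 and 537 CPM. Per 100 CPM of the summed markers, C4b was at 5.29 ± 2.05 (SD, n = 5) in the vehicle and 9.98 ± 1.36 in the HPBCD peri-infarct group, with no overlap (two-sided exact permutation test, p = 0.00794, the smallest that 5 against 5 can give). Contralaterally it was at 0.809 ± 0.417 and 0.378 ± 0.0968 (exact permutation p = 0.0397), in the opposite direction. The 8 reactive astrocyte markers moved with C4b, with sums of 730 to 3719 CPM in the peri-infarct libraries labelled vehicle and 3218 to 6555 CPM in those labelled HPBCD, and 3 of 8 were called higher between treatments. The study reported Gfap and Serpina3n, both in this list, as lower with HPBCD in this region. In the libraries as labelled, they averaged 1669 and 162 CPM with vehicle and 3429 and 322 CPM with HPBCD there. Adjusted over the 9 shares and ratios tested in each region, these p-values became 0.0715 and 0.357 (Benjamini-Hochberg), and no other share or ratio had an unadjusted p under 0.05.

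For the genes called between treatments, the fibroblast and meninges markers moved alongside. In the peri-infarct region 7 of 8 of them were called higher in HPBCD libraries, by a median log2 fold change of 2.41, as were 5 of 7 markers of border macrophages, whose sums were 18.9 to 34.5 CPM in vehicle and 37.8 to 87.9 CPM in HPBCD libraries. Per 100 CPM of the fibroblast and meninges markers, Serping1 was at 6.04 ± 2.62 (SD, n = 5) in vehicle and 7.42 ± 0.811 in HPBCD peri-infarct libraries (two-sided exact permutation test, p = 0.373). C1ra was at 2.08 ± 0.781 and 1.90 ± 0.345 on the same scale (exact permutation p = 0.722). A p that misses the threshold does not show that these ratios were alike, and the part of the markers in the calls of Serping1 and C1ra was not tested. With the border macrophage markers, Serping1 had r = 0.71 and C1ra r = 0.56 over the 10 peri-infarct libraries with group means removed, and C1qa had r = 0.41. Of 6 markers of infiltrating myeloid cells, 3 passed the filter on low counts there and 2 were called higher with HPBCD. Their sums were 0.714 to 5.75 CPM in vehicle and 3.87 to 30.0 CPM in HPBCD peri-infarct libraries. With these sums C1ra had r = 0.65, Serping1 r = 0.53 and C1qa r = 0.37 over the same libraries. The ependyma and choroid plexus markers, higher with HPBCD in the same comparison, had r = -0.11 with Serping1 and -0.10 with C1ra. The part of these lists in the calls was not tested.

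**Figure D5:**
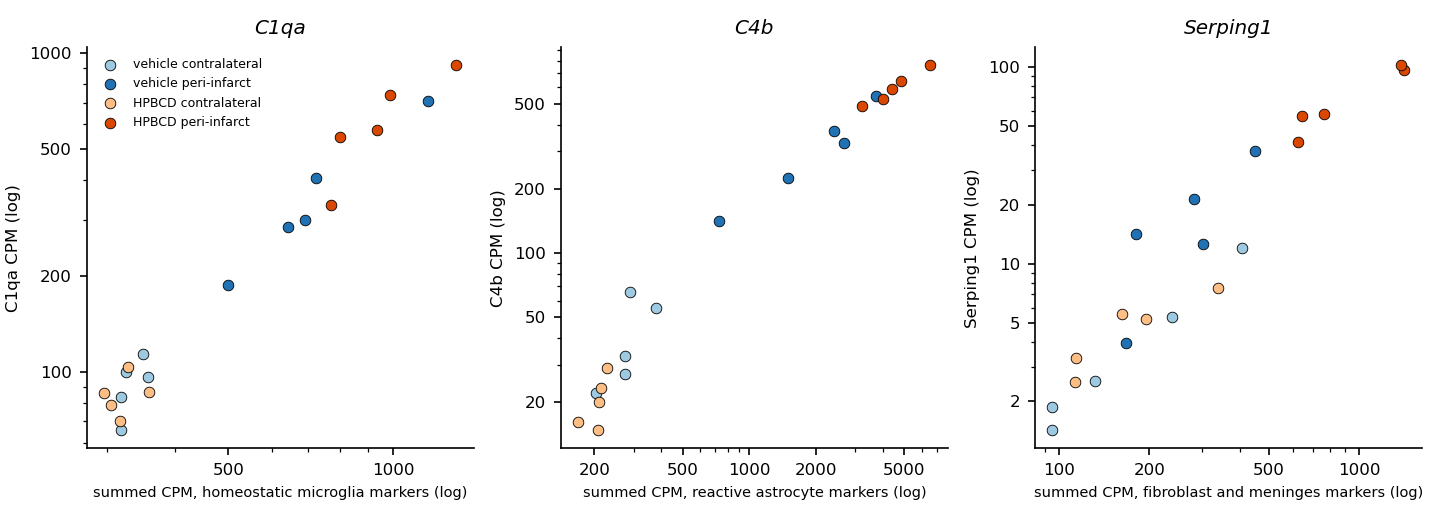
Level of C1qa, C4b and Serping1 (CPM, log axis) in each of the 20 libraries against the summed CPM of the marker list named on the horizontal axis (log axis). Each point is 1 library, coloured by group. The 5 HPBCD peri-infarct libraries lie at 626 to 1414 CPM of fibroblast and meninges markers, to the right of all other libraries.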

How the data were processed

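Bulk RNA-seq of the peri-infarct and contralateral regions of 10 mice gave 20 libraries in 4 groups of 5, grouped by their labels. The authors deposited 1 table of raw counts per library: reads from a stranded mRNA kit were converted with bcl2fastq 2.19, trimmed with Trimmomatic 0.32, aligned to GRCm38 with STAR 2.5.2b and counted per gene with HTSeq, per the labels and the submitters' processing notes. The annotation release and the strand option are not given in the sources used here. The 5 summary lines of each table, with 25.14% to 40.07% of read pairs, were left out; the highest share was that of the HPBCD contralateral library of mouse 4. Gene names came from GENCODE M21 for 45143 of 46078 identifiers (99.933% of counts), and exon lengths from the same annotation. No 2 libraries held identical values.

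Counts were tested with edgeR 4.0.16 in R 4.3.3 (quasi-likelihood F test, filterByExpr, trimmed mean of M values, Benjamini-Hochberg adjustment over all genes tested, threshold 0.05), on the 10 libraries of the groups compared and, for the interaction, on all 20. Standard errors came from the fold change and its F statistic (the fold change on the log2 scale over the root of F). Differences within mice were taken as log2 of CPM plus 0.5. DESeq2 1.42.0, limma voom 3.58.1, other size factors, other filters, counts thinned to the smallest library, 1 fit of all 4 groups, the mouse or replicate number as a block, and leaving out each library were alternatives. Leaving out both libraries of mouse 3 of either treatment was added after seeing the data. The scripts were tested on simulated data.

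Libraries with the same number within a treatment carry the same animal identifier in their deposited names and so pair the regions. Over these 10 pairs the deviations from the group means had a mean correlation of 0.112, with 5 of 10 above 0.1. Between treatments the numbers are names.

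The members and the gene lists were chosen with earlier results of these data known, and the lists by role, not by how their genes moved. Further complement genes were named when they passed the test with a mean of at least 1 CPM, with values for at most 5 in each direction per comparison; regulators, receptors and markers could be named in any case. Genes most like C1qa, C3, C4b and Serping1 were the 5 of highest Pearson r among those with a mean of at least 5 CPM in the peri-infarct libraries. A few genes that met these rules are not reported here by name, though the counts include them. Promoter windows came from RefSeq (GRCm38.p6). A share or ratio of counts carries counting error beside the spread between mice, and intervals here rest on the spread between mice.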

Additional observations from a re-analysis of the deposited data

Results flagged for a closer look

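Of the values tested, 6 lay far from the other 4 of their group by Dixon's test at the 95% level, in 72 groups of 5 values tested, and chance alone marks about 1 in 20 groups. C3 in the contralateral library of HPBCD mouse 3 was at 2.76 CPM, where the other 4 were at 0.0499 to 0.38 CPM, and C1ra in the same library was at 10.2 CPM, where the others were at 6.86 to 7.74 CPM. C3 per 100 CPM of reactive astrocyte markers was 1.21 in that library, against 0.0238 to 0.177 in the others. This library also held 642 CPM of ependyma and choroid plexus markers, against 7.16 to 14.4 CPM in the other 4, and their part in these values was not tested. The C1qa share of the C1q level was 51.7% in the contralateral library of HPBCD mouse 5, where the others were at 48.6% to 49.2%. The C1qc share was 15.9% in the peri-infarct library of vehicle mouse 1, where the others were at 16.9% to 17.2%. C1ra per 100 CPM of fibroblast and meninges markers was 2.51 in the peri-infarct library of HPBCD mouse 5, where the others were at 1.71 to 1.78.

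The region difference itself differed between treatments for 2 members by the interaction test in edgeR, with 1.88 on the log2 scale for C4b (adjusted p = 0.0201) and 1.33 for C1ra (adjusted p = 0.0458). The region difference was higher in HPBCD mice for both. The regions came from the same mice, and with the mouse as a block the adjusted p was 0.0518 for C1ra, which also lost its call with limma voom, no filter, thinned counts, without HPBCD mouse 3 or without vehicle mouse 3, while C4b kept its call. For C4b it was positive in 10 of 10 mice, and for C1ra in 5 of 5 HPBCD and 1 of 5 vehicle mice.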

How the results depend on the processing

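In the region comparison of HPBCD mice, the 9 members kept direction and call in all 178 values recomputed. In vehicle mice 164 of 179 did so, in the treatment comparison 154 of 189 peri-infarct and 157 of 164 contralaterally, and for the interaction 236 of 268. In the treatment comparison of the peri-infarct region, 2 members were called, but 4 with DESeq2, 5 with all 4 groups in 1 fit, 9 with the replicate block, 1 without HPBCD mouse 3, 8 without vehicle mouse 3 and 1 to 8 when single libraries were left out. Over all genes, higher calls there were 2011, and 2609 with DESeq2, 2644 with 1 fit, 2608 with the replicate block, 593 without HPBCD mouse 3 and 2792 without vehicle mouse 3. The further complement genes called there were 11, but 17 without vehicle mouse 3 and 8 to 17 when single libraries were left out. In the region comparison of vehicle mice these were 7, but 4 without vehicle mouse 3 and 4 to 7 when single libraries were left out (4 without the peri-infarct library of mouse 3 or 4 or the contralateral library of mouse 5). Over all genes, higher calls in that comparison were 1662, and 866 without vehicle mouse 3. They were 1346 and 1100 without the peri-infarct library of mouse 3 or 4, and 1157 without the contralateral library of mouse 5. For the interaction, 2 members were called, but 1 with limma voom, with no filter, with thinned counts, with the replicate block or without HPBCD mouse 3, 4 without vehicle mouse 3 and 1 to 6 when single libraries were left out (6 without the peri-infarct library of vehicle mouse 3). Over all genes, higher interaction calls were 843 of 16758. They were 627 with limma voom, 590 with no filter, 765 with thinned counts, 1008 with the replicate block and 1348 with DESeq2. They were 311 without HPBCD mouse 3, 1130 without vehicle mouse 3 and 1589 without the peri-infarct library of vehicle mouse 3. The further complement genes with an interaction were 5, but 9 with DESeq2, 2 without HPBCD mouse 3 and 2 to 10 when single libraries were left out. Of values that had not passed the test, the region difference of C1ra in vehicle mice turned from -0.15 to 0.01 without the contralateral library of mouse 3 (-0.52 to 0.01 when single libraries were left out) and to 0.07 without both libraries of vehicle mouse 3. The contralateral treatment difference of Serping1 turned from 0.05 to -0.16 without HPBCD mouse 3 and -0.10 without vehicle mouse 3, and lay between -0.18 and 0.78 when single libraries were left out, negative in 5 of 10 (-0.18, -0.10, -0.15, -0.16 and -0.01). The cause of these changes was not tested.

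Replicate numbers are shared between treatments by label only. Over the 5 pairs of equal number, the mean correlation of deviations was 0.14 in the peri-infarct region (2 of 5 above 0.1) and -0.033 contralaterally (1 of 5), so the replicate block of that comparison rests on numbers and not on a shared animal. With the mouse as a block in the region comparisons, 6 of 9 members were called in vehicle mice and 9 of 9 in HPBCD mice. Over all genes, these fits called 1615 of 15801 higher in vehicle mice and 4878 of 16047 in HPBCD mice. A block left 0 members called in the contralateral treatment comparison, where 1 of 15469 genes was called higher.

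The low levels of C3 contralaterally and of C5ar1 limit their fold changes, and the stricter filter of 10 counts in every library removed them from some comparisons. With 5 libraries a group, only permutation p-values of 0.00794 or more can arise.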
